A study of Mus musculus with 10 samples.

Results

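Expression of 10 crypt genes was examined in RNA-seq libraries of proximal small intestine from mice lacking the metal transporter *Zip14* (*Slc39a14*) and from wild-type (WT) mice. The genes were taken by name, with no threshold on their values, and are *Lgr5*, *Olfm4*, *Ascl2*, *Smoc2* and *Tnfrsf19*, which mark stem cells of the crypt base, *Axin2*, *Rnf43*, *Znrf3* and *Sox9*, which respond to Wnt signaling, and the ligand gene *Wnt3*. They are 10 of the 35275 Ensembl gene IDs in the deposited counts, and all 10 were found by symbol. The WT group and the knockout group (KO) each had 5 mice, with 1 library per mouse, and the sample labels give an age of 8 to 10 weeks for all of them. The labels say only that *Slc39a14* was deleted. The title of the series names a deletion in enterocytes, whereas the methods describe whole-body knockouts for the RNA-seq experiment, so the group is called KO here and the counts do not tell which model it was. In an enterocyte-specific model the Villin promoter drives Cre and other cells keep the gene, and in a whole-body model every cell type lacks it. RNA came from pieces of the gut wall, so that for each gene described here fewer cells of a type and less RNA per cell cannot be told apart.

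The epithelium of the small intestine is renewed from stem cells at the base of the crypts, which sit between Paneth cells. Wnt ligands from Paneth cells and from the underlying mesenchyme bind Frizzled and LRP receptors, stabilize β-catenin and switch on target genes through TCF factors, which keeps the stem cells dividing. R-spondins amplify the signal by binding LGR receptors and removing the ubiquitin ligases RNF43 and ZNRF3, which otherwise take Frizzled off the cell surface. *Rnf43*, *Znrf3* and *Axin2* are themselves Wnt targets, so the pathway restrains its own output.

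Promoter sequences are shown for 5 of the genes, because 4 of them (*Ascl2*, *Axin2*, *Tnfrsf19* and *Rnf43*) differed between the groups and *Wnt3* is the only ligand in the set. RefSeq windows of 300 bases (GRCm38.p6), from 250 bases before to 50 after a transcription start, were held for 6 of the 10 genes, in 8 windows. Each sequence is written 5′ to 3′ on the strand of the gene. Capitals mark the TCF/LEF core, CTTTG followed by AA, AT, TA or TT, searched on both strands, and the E-box CAGCTG, a sequence that ASCL factors bind and that reads the same on both strands. The windows are chr7:142969215-142969514 (minus strand) for *Ascl2*, chr11:108920099-108920398 (plus) for *Axin2*, chr14:61037938-61038237 (minus) for *Tnfrsf19*, chr11:87662837-87663136 (plus) for *Rnf43* and chr11:103773925-103774224 (plus) for *Wnt3*.
Ascl2: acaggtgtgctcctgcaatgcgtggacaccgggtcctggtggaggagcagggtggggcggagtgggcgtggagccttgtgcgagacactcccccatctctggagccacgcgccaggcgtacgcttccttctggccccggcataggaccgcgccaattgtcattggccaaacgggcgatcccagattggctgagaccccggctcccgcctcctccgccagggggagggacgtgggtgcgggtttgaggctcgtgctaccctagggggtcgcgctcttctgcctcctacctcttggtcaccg
Axin2: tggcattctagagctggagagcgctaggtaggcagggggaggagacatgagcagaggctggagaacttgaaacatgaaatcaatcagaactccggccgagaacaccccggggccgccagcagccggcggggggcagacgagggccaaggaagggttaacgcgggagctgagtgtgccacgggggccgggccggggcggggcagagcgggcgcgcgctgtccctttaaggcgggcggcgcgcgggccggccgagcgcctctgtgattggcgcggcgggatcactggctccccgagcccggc
Tnfrsf19: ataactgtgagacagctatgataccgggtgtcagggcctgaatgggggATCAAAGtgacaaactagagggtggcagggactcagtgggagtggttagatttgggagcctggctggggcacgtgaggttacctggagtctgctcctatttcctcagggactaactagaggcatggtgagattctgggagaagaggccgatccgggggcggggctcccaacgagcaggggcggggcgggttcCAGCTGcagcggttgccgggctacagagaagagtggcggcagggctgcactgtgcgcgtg
Rnf43: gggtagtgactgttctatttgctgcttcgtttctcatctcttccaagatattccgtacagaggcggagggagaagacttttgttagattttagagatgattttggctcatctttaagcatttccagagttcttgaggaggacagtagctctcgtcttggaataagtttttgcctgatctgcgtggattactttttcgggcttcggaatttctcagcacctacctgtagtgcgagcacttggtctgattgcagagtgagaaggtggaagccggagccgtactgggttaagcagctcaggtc
Wnt3: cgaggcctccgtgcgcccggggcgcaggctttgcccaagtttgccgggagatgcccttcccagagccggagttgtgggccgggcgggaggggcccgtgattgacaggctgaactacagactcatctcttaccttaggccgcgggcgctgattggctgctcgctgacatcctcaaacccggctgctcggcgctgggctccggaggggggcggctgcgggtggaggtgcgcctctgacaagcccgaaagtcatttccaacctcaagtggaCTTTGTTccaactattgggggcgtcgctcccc

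The TCF/LEF core was present in 2 of the 8 windows of these genes, against 16.9% of all 32851 RefSeq windows of the same length. *Tnfrsf19* held it on the opposite strand as ATCAAAG, 202 bases before the start, and *Wnt3* held CTTTGTT, 18 bases after the start. The E-box occurred in 1 of the 8 windows, that of *Tnfrsf19* shown above, and in 16.3% of all windows. No match was found in the other window of *Tnfrsf19*, chr14:61046806-61047105, or in the windows of *Ascl2*, *Axin2*, *Rnf43* (both) or *Olfm4*, which says only that these letters are not within these 300 bases. *Lgr5*, *Smoc2*, *Sox9* and *Znrf3* had no window.

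The counts per library totalled 16729787 to 20819678 in WT and 17118742 to 19414828 in KO mice. Levels are given as CPM, counts scaled to TMM-normalized library size, and the KO mice were tested against the WT mice in edgeR (quasi-likelihood) over 15610 genes, a gene being called at an adjusted p under 0.05. *Slc39a14*, the deleted gene, was at 264, 357, 268, 191 and 223 CPM in WT mice 1 to 5 and at 160, 85.8, 93.8, 78.5 and 93.7 CPM in KO mice 1 to 5. All KO mice were thus below all WT mice, and the fall was 2.54-fold (log2 fold change -1.35, SE 0.22, adjusted p = 0.00184). The groups also differed in the position along the gut that their libraries resembled. The summed level of 5 ileum markers was 199 to 237 CPM in WT and 3245 to 10499 CPM in KO mice. That of 5 duodenum and jejunum markers was 204 to 388 CPM in WT and 31.5 to 95.4 CPM in KO mice. Of these, 4 were tested, 2 fell and 0 rose (2 and 0 at an unadjusted p under 0.05, 3 and 0 in DESeq2), with log2 fold changes of -6.24 to 0.66. *Gata4*, a transcription factor of duodenum and jejunum, fell from 160 to 217 CPM in WT mice to 59.4, 13.9, 5.24, 0.572 and 1.47 CPM in KO mice 1 to 5. KO mice 1 and 2 stood apart from the other KO mice in *Gata4* and in the ileum sum, and *Car1*, a colon gene, was at 0 in all WT mice and reached 1172 CPM in KO mouse 2. The sum of 7 stomach, pancreas and colon markers was 6.75, 17.7, 50.1, 0 and 3.64 CPM in WT mice 1 to 5. In KO mice 1 to 5 it was 0, 1243, 0.540, 11.3 and 0.0525 CPM. Position along the gut and genotype cannot be told apart in these libraries.

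The intestinal epithelium itself was present in all libraries. The summed level of 8 pan-epithelial markers (*Krt8*, *Krt19* and others) was 9434 to 11410 CPM in WT and 12404 to 17195 CPM in KO mice, and 6 of the 8 rose (6 higher and 1 lower at an unadjusted p under 0.05). *Vil1*, the villin gene of the brush border, had a lower mean in KO mice, 3086 ± 96.5 CPM in WT and 2200 ± 740 CPM in KO mice (SD, n = 5, log2 fold change -0.49, adjusted p = 0.105). Of 10 villus enterocyte markers 6 fell and 0 rose (7 and 0 at an unadjusted p under 0.05 and in DESeq2), with sums of 33178 to 41037 CPM in WT and 14605 to 32442 CPM in KO mice. Smooth muscle markers rose in 9 of 10 cases, with sums of 1626 to 2659 CPM in WT and 3598 to 10438 CPM in KO mice, the highest in KO mouse 4. All 8 markers of enteric neurons and glia rose, with sums of 15.6 to 29.0 CPM in WT and 32.3 to 95.9 CPM in KO mice, again highest in KO mouse 4. Of 8 fibroblast markers 2 rose, and of 8 immune cell markers 1 fell (1 higher and 2 lower at an unadjusted p under 0.05 and in DESeq2), and their sums overlapped. Of all genes tested, 16.0% were called higher and 13.9% lower. No muscle, neural or epithelial sum overlapped between the groups, so their part in the results below cannot be told apart from genotype. The scaling and the covariates given with those results do not separate them either.

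Of the 10 crypt genes, *Ascl2*, *Axin2* and *Tnfrsf19* rose in KO mice and *Rnf43* fell, whereas *Lgr5*, *Olfm4*, *Smoc2*, *Znrf3*, *Sox9* and *Wnt3* did not pass the test. All 10 passed the filter on low counts. The 4 called genes stand against 29.9% of all genes tested, 16.0% being higher and 13.9% lower in KO mice, so the set was not far from the background. No overlap between KO and WT libraries was seen for 3 of the 10 (*Ascl2*, *Tnfrsf19* and *Rnf43*), against 21.1% of all genes tested. The median log2 fold change was 0.32 over the 10 genes and 0.03 over all genes tested. Of all called genes, 53.5% were higher in KO mice with TMM normalization and 69.4% when only library size was used, which moved the median of all genes to 0.15.

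**Figure D1:**
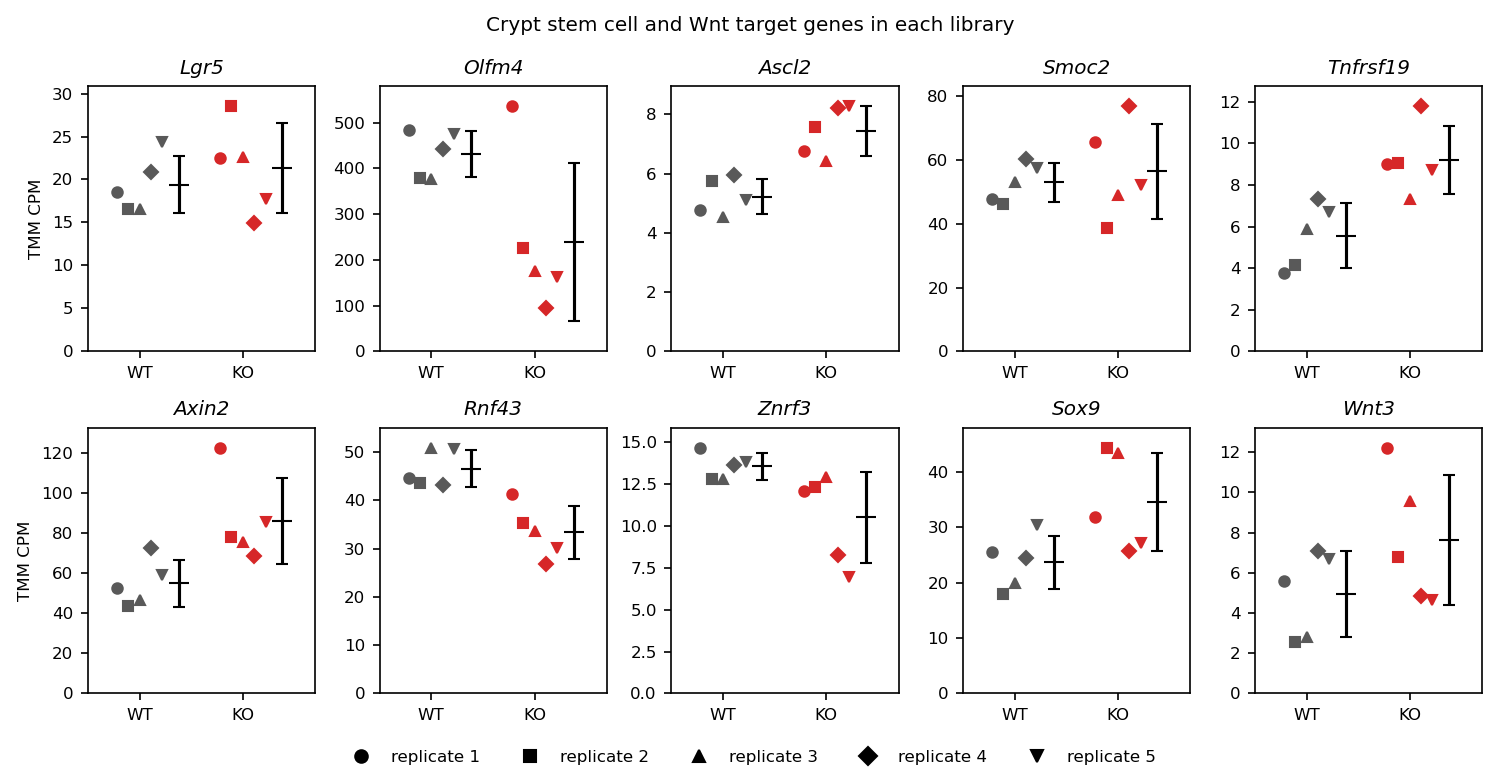
Level of each of the 10 crypt genes in each library, as TMM CPM on an axis from 0 that differs between panels. Gray symbols are WT and red symbols KO mice, the symbol gives the replicate number, and the bar beside each group is the mean ± SD (n = 5). All KO mice lie above all WT mice for *Ascl2* and *Tnfrsf19* and below them for *Rnf43*, and for *Olfm4* 4 KO mice lie below the WT mice while KO mouse 1, at 537 CPM, lies above.

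*Lgr5* (ENSMUSG00000020140, chr10:115450311-115587780, minus strand) encodes the R-spondin receptor that defines cycling crypt base stem cells. Its level was 18.6, 16.6, 16.6, 20.8 and 24.4 CPM in WT mice 1 to 5 and 22.5, 28.6, 22.7, 14.96 and 17.8 CPM in KO mice 1 to 5. The groups overlapped over most of their range, and the lowest and the highest library were both KO mice. The log2 fold change was 0.14 (SE 0.18, 95% confidence interval -0.26 to 0.53, adjusted p = 0.586). Without KO mouse 2 it was -0.00055.

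*Olfm4* (ENSMUSG00000022026, chr14:79984081-80023139, plus strand) encodes a secreted glycoprotein made in abundance by the same stem cells. It was at 483, 379, 377, 444 and 476 CPM in WT mice 1 to 5 and at 537, 226, 176, 94.6 and 162 CPM in KO mice 1 to 5. KO mice 2 to 5 were below every WT mouse and KO mouse 1 was above every WT mouse. Over all mice the log2 fold change was -0.85 (SE 0.38, 95% confidence interval -1.68 to -0.03), and the adjusted p was 0.106. Leaving out KO mouse 1 changed this call, with a log2 fold change of -1.39 and an adjusted p of 0.00139. With all libraries kept, it was also called lower with the replicate number as a block (-1.10, adjusted p = 0.0452). The same held when scaled to the pan-epithelial markers (-1.31, adjusted p = 0.00892). In all, it was called in 4 of 21 alternatives. KO mouse 1 was also the KO mouse with the most *Gata4* and the most of the intestinal lactase gene *Lct* (702 CPM, against 0.315 to 281 CPM in the other KO mice and 3363 to 3783 CPM in WT mice). KO mouse 4, with the lowest *Olfm4*, had the lowest *Gata4*. In KO mice 3 to 5 alone, compared with all WT mice, *Olfm4* was called lower (log2 fold change -1.58, adjusted p = 0.00108). This subset was chosen after seeing the data and leaves out KO mouse 1, so it is not separate support.

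*Ascl2* (ENSMUSG00000009248, chr7:142966829-142969264, minus strand) encodes a transcription factor that sets the stem cell program. Its level was 4.77, 5.74, 4.55, 5.94 and 5.10 CPM in WT mice 1 to 5, and 6.76, 7.55, 6.42, 8.20 and 8.29 CPM in KO mice 1 to 5. Each KO mouse was above each WT mouse. The mean rose 1.43-fold (log2 fold change 0.51, SE 0.14, adjusted p = 0.019), from 5.22 ± 0.601 CPM in WT to 7.44 ± 0.837 CPM in KO mice (SD, n = 5). The gene had 78 to 172 counts per library, and its adjusted p rose to 0.0518 without WT mouse 1 and 0.0541 without WT mouse 3.

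*Smoc2* (ENSMUSG00000023886, chr17:14279506-14404790, plus strand) encodes a matricellular protein found in stem cells and in stromal cells. WT mice 1 to 5 were at 47.8, 46.2, 53.1, 60.2 and 57.4 CPM and KO mice 1 to 5 at 65.5, 38.7, 48.8, 77.0 and 52.0 CPM. KO mice spread more widely, with SDs of 14.97 CPM in KO and 6.004 CPM in WT, and lay on both sides of the WT mice. KO mice differed from WT mice by 0.09 in log2 fold change (SE 0.17, 95% confidence interval -0.28 to 0.46, adjusted p = 0.706). It was -0.046 without KO mouse 4, the KO mouse with the most *Smoc2* and the highest smooth muscle sum.

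*Tnfrsf19* (ENSMUSG00000060548, chr14:60963875-61046490, minus strand), also known as *Troy*, encodes a receptor of the TNF receptor family that is a Wnt target in stem cells. It was at 3.79, 4.15, 5.89, 7.31 and 6.72 CPM in WT mice 1 to 5 and at 9.01, 9.07, 7.34, 11.8 and 8.71 CPM in KO mice 1 to 5. The highest WT mouse and the lowest KO mouse were nearly level, but the groups did not overlap. The mean rose 1.65-fold (log2 fold change 0.72, SE 0.21, adjusted p = 0.0251), from 5.57 ± 1.55 to 9.19 ± 1.63 CPM (SD, n = 5). The adjusted p was 0.0576, 0.0642 and 0.0533 without WT mouse 1, WT mouse 2 and KO mouse 4. KO mouse 4, with the most *Tnfrsf19*, also had the highest smooth muscle and neural sums. The log2 fold change was 0.12 (SE 0.31, adjusted p = 0.903) with the smooth muscle markers as a covariate and 0.65 (SE 0.50, adjusted p = 0.579) with the pan-epithelial ones. Neither marker sum overlapped between the groups, so these fits cannot tell marker level from genotype. Over all genes 18 and 6 were called with these covariates.

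*Axin2* (ENSMUSG00000000142, chr11:108920349-108950783, plus strand), a scaffold of the complex that destroys β-catenin and a widely used readout of the pathway, rose in KO mice. Its level was 52.5, 43.6, 46.3, 72.7 and 59.0 CPM in WT mice 1 to 5 and 122, 77.9, 75.5, 68.4 and 85.3 CPM in KO mice 1 to 5. KO mice 1, 2, 3 and 5 were above every WT mouse, and KO mouse 4 was below WT mouse 4. This was a 1.57-fold rise (log2 fold change 0.65, SE 0.18, adjusted p = 0.0209), from 54.8 ± 11.6 to 85.9 ± 21.3 CPM (SD, n = 5). The adjusted p was 0.0514, 0.0569 and 0.0560 without WT mouse 1, 2 or 3, and 0.0519 with KO mice 3 to 5 alone. *Axin2* shares 209 exon bases with the antisense gene *Gm11670*, which had 4 to 27 counts per library against 684 to 2174 for *Axin2*.

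*Rnf43* (ENSMUSG00000034177, chr11:87662722-87735539, plus strand), the ubiquitin ligase that removes Frizzled, fell in KO mice. WT mice 1 to 5 had 44.6, 43.6, 50.9, 43.1 and 50.7 CPM, and KO mice 1 to 5 had 41.2, 35.4, 33.7, 26.7 and 30.1 CPM. No KO mouse reached the lowest WT mouse, and KO mouse 1 came nearest. The mean was 1.39-fold lower in KO mice (log2 fold change -0.48, SE 0.12, adjusted p = 0.0127), from 46.6 ± 3.89 to 33.4 ± 5.49 CPM (SD, n = 5). Of the 4 called genes this was the only one called in all 10 fits that left out 1 library, with adjusted p-values of 0.00353 to 0.0347. It was also called with KO mice 3 to 5 alone, a subset chosen after seeing the data. That subset leaves out KO mice 1 and 2, the KO mice nearest to the WT mice, so it is not separate support.

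*Znrf3* (ENSMUSG00000041961, chr11:5276324-5444847, minus strand) encodes the related ligase. It was at 14.7, 12.8, 12.8, 13.6 and 13.8 CPM in WT mice 1 to 5 and at 12.1, 12.3, 13.0, 8.24 and 6.98 CPM in KO mice 1 to 5. KO mice 1, 2, 4 and 5 were below every WT mouse, mice 1 and 2 by little and mice 4 and 5 by more, and KO mouse 3 was within the WT range. The log2 fold change was -0.37 (SE 0.17, 95% confidence interval -0.75 to 0.02) and did not pass the test (adjusted p = 0.129). Both ligases thus had a lower mean in KO mice, whereas the mean of *Axin2*, a target of the same pathway, was higher.

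*Sox9* (ENSMUSG00000000567, chr11:112782224-112787760, plus strand) encodes a transcription factor of crypt cells that is needed for Paneth cells. Its level was 25.5, 18.1, 19.9, 24.5 and 30.4 CPM in WT mice 1 to 5 and 31.9, 44.4, 43.5, 25.8 and 27.2 CPM in KO mice 1 to 5. KO mice 1 to 3 were above every WT mouse and KO mice 4 and 5 were within the WT range. The log2 fold change was 0.55 (SE 0.19, 95% confidence interval 0.12 to 0.97), with an adjusted p of 0.0515 that lay just outside the threshold. It was called in 6 of 21 alternatives, such as DESeq2 (adjusted p = 0.0366), a robust dispersion (0.0489) and scaling to library size only (0.0283). It was not called in the other 15, such as the fits without a filter (0.0705), without KO mouse 3 (0.122) and scaled to the pan-epithelial markers (log2 fold change 0.12, adjusted p = 0.617).

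*Wnt3* (ENSMUSG00000000125, chr11:103774150-103817957, plus strand) encodes the Wnt ligand that Paneth cells supply to the stem cells. WT mice 1 to 5 had 5.60, 2.55, 2.80, 7.09 and 6.67 CPM, and KO mice 1 to 5 had 12.2, 6.77, 9.55, 4.86 and 4.67 CPM. KO mice 1 and 3 exceeded all WT mice and the other KO mice fell among them. The log2 fold change was 0.62 (SE 0.36, 95% confidence interval -0.17 to 1.41, adjusted p = 0.208). The gene had 40 to 217 counts per library.

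The order of the mice by *Wnt3* was close to that by the summed Paneth cell markers. The summed level of 8 Paneth cell markers was 13492, 7704, 6703, 20376 and 17452 CPM in WT mice 1 to 5 and 25950, 12804, 18316, 9782 and 6251 CPM in KO mice 1 to 5. Within the KO group the order of the 5 mice by *Wnt3* was the order by this sum, and within the WT group it differed only in the order of mice 2 and 3, the lowest pair in both. The order did not hold for each marker, since *Lyz1* was at 11139, 3404, 2604, 4135 and 2691 CPM in KO mice 1 to 5, lowest in mouse 3, which had the second highest *Wnt3*. None of the 8 markers was called by edgeR in either direction (2 were higher and 0 lower at an unadjusted p under 0.05, and DESeq2 called 1 higher), *Lyz1* being at 5250 ± 2623 CPM in WT and 4794 ± 3600 CPM in KO mice (SD, n = 5) and *Defa24* at 5829 ± 2511 and 6012 ± 3060 CPM. The log2 fold changes of the 8 markers ran from -0.13 for *Lyz1* and 0.04 for *Defa24*, the lowest, to 2.18, with a median of 0.52. The match of the orders was seen in the data and carries no test.

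**Figure D2:**
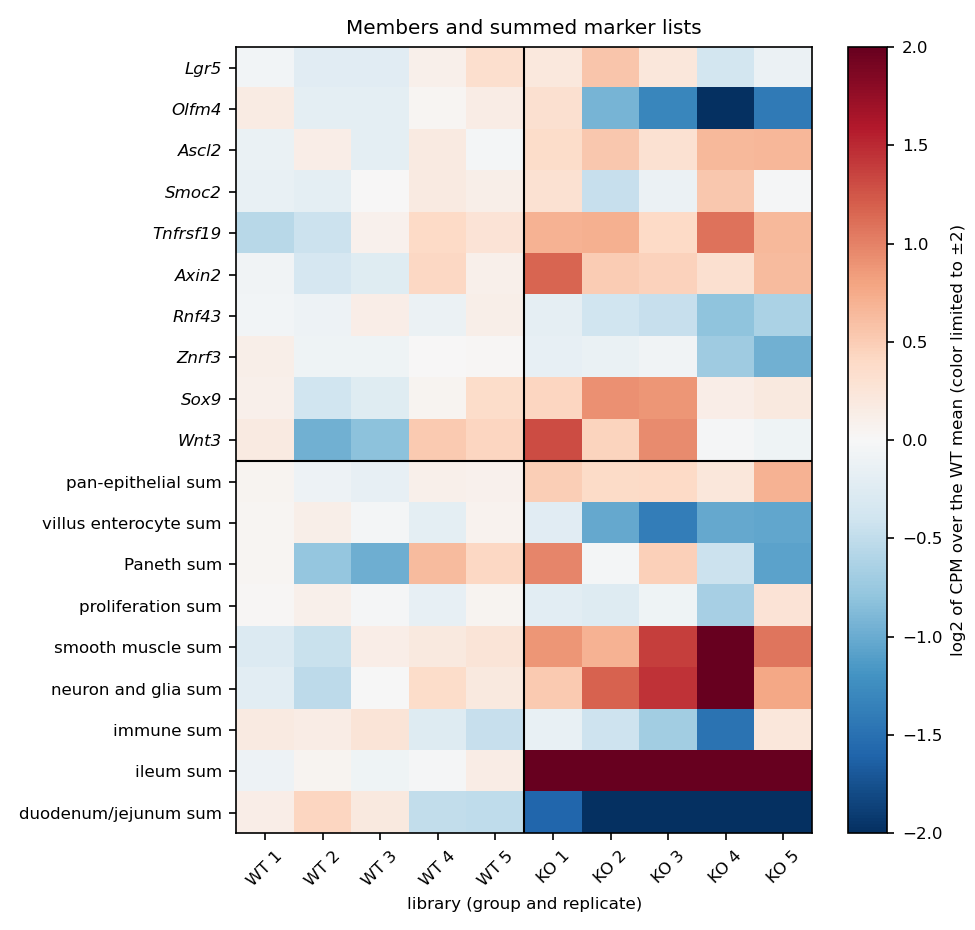
Each crypt gene (top) and each summed marker list (bottom) in each library, as the log2 of its CPM over the WT mean, with the color limited to ±2. *Ascl2*, *Tnfrsf19* and *Axin2* are above the WT mean in all KO mice and *Rnf43* is below it, *Olfm4* is below it in KO mice 2 to 5, and the muscle, neural and ileum sums are above it in all KO mice.

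The libraries did not order the 10 genes alike. KO mouse 4 was the lowest of the KO mice for 5 genes and the highest for 2, whereas KO mouse 1 was the highest for 4 and the lowest for none. Among WT mice, mouse 4 was the highest for 5 genes and mouse 2 the lowest for 5. *Olfm4*, *Rnf43*, *Axin2*, *Lgr5* and *Sox9* were lowest in the KO mouse that had the most smooth muscle transcript, and *Tnfrsf19* and *Smoc2* were highest in it. KO mouse 4 had the lowest pan-epithelial sum of the KO mice (12404 CPM), which was still above all WT mice. It also had the highest ileum sum (10499 CPM) and the lowest proliferation (427 CPM) and immune (476 CPM) sums of all libraries.

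Set against the pan-epithelial markers instead of all counts, the picture changed. As counts per 1000 counts of these 8 markers, *Olfm4* was at 43.7, 38.5, 40.0, 38.9 and 42.5 in WT mice 1 to 5 and at 36.0, 16.4, 12.6, 7.63 and 9.45 in KO mice 1 to 5, so that KO mouse 1 now lay below the WT mice as well. *Rnf43* was at 3.78 to 5.40 in WT and 1.75 to 2.76 in KO mice, and *Znrf3* was at 1.19 to 1.36 and 0.406 to 0.927. For these genes the groups did not overlap, and for the other 7 they did. The share of all genes without overlap on this scale was not computed. In the edgeR fit with this scaling the log2 fold changes were -1.31 for *Olfm4* (adjusted p = 0.00892), -0.93 for *Rnf43* (adjusted p = 5.2e-04) and -0.80 for *Znrf3* (adjusted p = 0.00726), all called lower. In the same fit 7019 of all 15610 genes were called lower, so a fall on this scale is not particular to these genes.

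None of the 3 genes that rose on the CPM scale was called per epithelial count. Log2 fold changes were 0.07 for *Ascl2* (adjusted p = 0.748), 0.21 for *Axin2* (adjusted p = 0.274) and 0.30 for *Tnfrsf19* (adjusted p = 0.31), while *Lgr5* and *Smoc2* were at -0.30 and -0.33 and were not called. This scaling moved the median log2 fold change of all genes to -0.42, and 9.17% of the called genes were then higher in KO mice. Relative to that median, the log2 fold changes of *Olfm4*, *Rnf43* and *Znrf3* were lower and those of the other 7 genes higher. For *Lgr5* (SE 0.18) and *Smoc2* (SE 0.20) the gap to the median was smaller than the SE. Differences from the median were not tested. The markers used as the base rose in 6 of 8 cases themselves on the TMM scale, so both scalings cannot be neutral, and neither was tested for this. With the mean level of the smooth muscle or of the pan-epithelial markers as a covariate, none of the 10 genes was called in edgeR (1 and 0 of them, respectively, had an unadjusted p under 0.05), and over all genes the calls numbered 18 and 6. The SEs were wider for all 10 genes under both covariates. Neither marker sum overlapped between the groups, so the covariates follow genotype and these fits cannot separate marker level from it. With the smooth muscle covariate the log2 fold changes were 0.44 (SE 0.25) for *Ascl2*, 0.82 (SE 0.34) for *Axin2*, 0.12 (SE 0.31) for *Tnfrsf19* and -0.22 (SE 0.20) for *Rnf43*. With the pan-epithelial covariate they were 0.37 (SE 0.34), -0.03 (SE 0.38), 0.65 (SE 0.50) and -0.41 (SE 0.29) in the same order of genes.

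**Figure D3:**
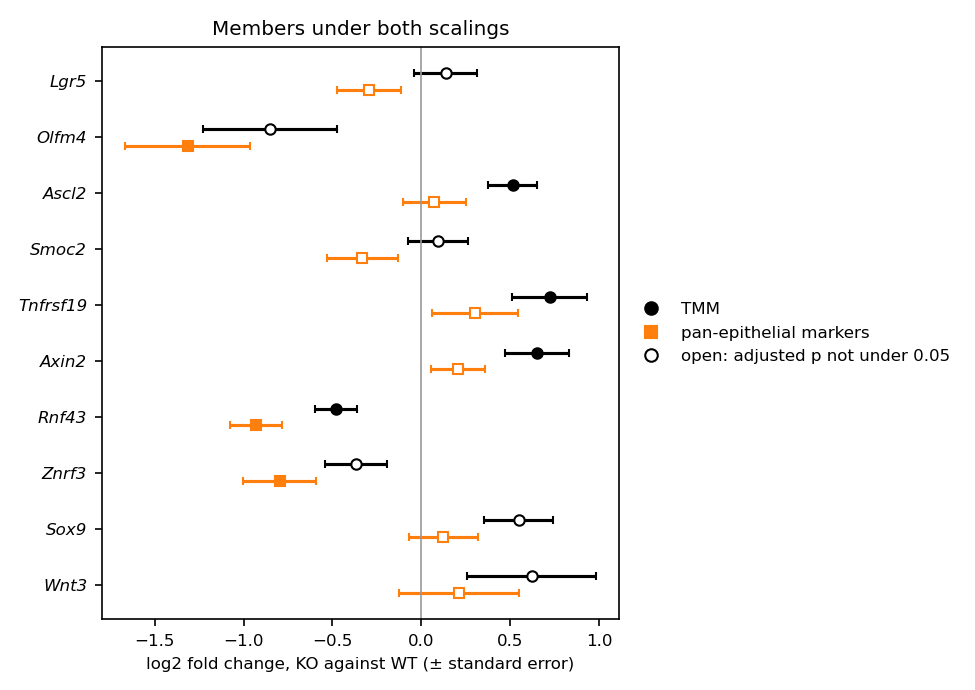
Log2 fold change of KO against WT mice for the 10 crypt genes, with bars of ± 1 SE, from edgeR fits on the same 5 and 5 libraries scaled by TMM (black circles) or to the counts of 8 pan-epithelial markers (orange squares). Filled symbols have an adjusted p under 0.05, and *Rnf43* is the one gene filled under both scalings, at -0.48 and -0.93.

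Levels can be compared between genes only per length. As CPM per kb of all exons, *Olfm4* was by far the most abundant in WT mice at 146 ± 17.3 (SD, n = 5). *Axin2* at 9.96 ± 2.11, *Smoc2* at 7.62 ± 0.864, *Rnf43* at 7.10 ± 0.593 and *Sox9* at 5.73 ± 1.17 followed, and their ranges overlapped from each to the next. *Ascl2* was at 3.22 ± 0.370, below all of these. *Lgr5* at 1.89 ± 0.321, *Znrf3* at 1.72 ± 0.0987, *Wnt3* at 1.61 ± 0.696 and *Tnfrsf19* at 1.18 ± 0.328 were the least abundant and were not separated by their spread from the next in order. In KO mice *Olfm4* was again the most abundant at 80.8 ± 58.5 CPM per kb, and *Sox9* at 8.36 ± 2.15 stood above *Rnf43* at 5.10 ± 0.838. With the length of the longest transcript in place of all exons, *Smoc2* was above *Axin2* and *Lgr5* above *Ascl2* in WT mice.

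The rest of the Wnt pathway was taken from 5 lists with 95 genes, of which 76 were tested. Of these, 19 rose and 8 fell in KO mice, 35.5% in all, with a median log2 fold change of 0.22, beside 29.9% and 0.03 for all genes tested. Scaled to the pan-epithelial markers, 4 of the 76 were higher and 27 lower, beside 709 and 7019 of all 15610 genes. Without WT mouse 2 or WT mouse 3 the number that rose was 12, and with the smooth muscle or the pan-epithelial covariate 0 of the 76 were called in edgeR (at an unadjusted p under 0.05, 9 higher and 3 lower with the first, 6 and 4 with the second).

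Among Wnt ligands, their secretion factors and R-spondins, 12 of 24 genes were tested, 3 rose and 2 fell, with a median log2 fold change of 0.43. They amount to 41.7% called, beside 29.9% of all genes tested. *Wls*, the carrier that all Wnt proteins need to leave the cell, rose from 43.4 ± 2.49 to 61.1 ± 6.84 CPM (SD, n = 5, log2 fold change 0.49, adjusted p = 0.00334). The R-spondin genes *Rspo3* and *Rspo2*, products of stromal cells, rose with log2 fold changes of 1.13 (adjusted p = 0.0106) and 1.52 (adjusted p = 0.0295), at low levels of 2.43 ± 0.6003 to 5.29 ± 1.85 CPM and 0.364 ± 0.230 to 1.06 ± 0.312 CPM. *Wnt2b*, a stromal ligand, fell from 19.2 ± 1.58 to 9.71 ± 4.61 CPM (log2 fold change -0.98, adjusted p = 0.0208), and *Wnt4* fell from 19.9 ± 3.90 to 10.9 ± 4.41 CPM (log2 fold change -0.87, adjusted p = 0.0242). *Wnt5a* was at 21.6 ± 3.21 and 17.0 ± 4.42 CPM and was not called (adjusted p = 0.182).

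Of 14 inhibitor genes 9 were tested, 2 rose and 1 fell, with a median log2 fold change of 0.26. At 33.3% called the list was near the 29.9% of all genes tested. *Sfrp5*, a secreted Frizzled-related protein that binds Wnt, fell in all KO mice below all WT mice, from 6.64 ± 2.17 to 1.25 ± 0.505 CPM (SD, n = 5, log2 fold change -2.40, adjusted p = 0.000984). *Dkk2* and its co-receptor *Kremen2*, which act on LRP receptors, rose with log2 fold changes of 1.55 (adjusted p = 0.00734) and 1.61 (adjusted p = 0.00876). The most abundant genes of this list, *Sfrp1*, *Dkk3* and *Kremen1*, had log2 fold changes of -0.30, 0.26 and -0.03 and were not called.

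Receptor genes numbered 15 tested of 17, 5 of which rose and 0 of which fell in edgeR (5 and 1 at an unadjusted p under 0.05, 5 and 0 in DESeq2), with a median log2 fold change of 0.32. This is 33.3% called, near the 29.9% of all genes tested. *Fzd2* rose from 6.92 ± 1.68 to 16.4 ± 5.04 CPM (SD, n = 5, log2 fold change 1.25, adjusted p = 0.00343), and *Fzd6* and *Fzd8* rose with log2 fold changes of 0.78 each. *Fzd3* rose as well (log2 fold change 2.42, adjusted p = 0.00792) but was near the floor, at 0 to 0.392 CPM in WT and 0.732 to 1.57 CPM in KO mice. The receptors at the highest levels, *Fzd5* at 190 ± 27.9 and 178 ± 43.1 CPM, *Lgr4* at 119 ± 19.6 and 140 ± 31.5 CPM and *Lrp6* at 107 ± 9.77 and 91.8 ± 14.7 CPM in WT and KO mice, were not called.

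All 20 genes of cytoplasmic and nuclear signal transduction were tested, 3 rose and 4 fell, with a median log2 fold change of 0.07. Those called were 35.0% of the list, near the 29.9% of all genes tested. *Ctnnb1*, which encodes β-catenin, was at 766 ± 40.5 CPM in WT and 809 ± 135 CPM in KO mice (SD, n = 5, adjusted p = 0.679). *Tnks*, a tankyrase that destabilizes axin, fell from 55.1 ± 7.61 to 21.5 ± 10.5 CPM (log2 fold change -1.36, adjusted p = 0.0119), while its paralog *Tnks2* had a log2 fold change of -0.20 and was not called. *Gsk3a*, a kinase of the destruction complex, fell too (log2 fold change -0.50, adjusted p = 0.00889). *Tcf7l1*, a TCF factor that mostly represses, rose (log2 fold change 1.06, adjusted p = 0.0128), as did *Bcl9*, a β-catenin coactivator (0.47, adjusted p = 0.0492).

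Among 20 other crypt genes and Wnt targets, all tested, 6 rose and 1 fell, with a median log2 fold change of 0.20. The share called was 35.0%, near the 29.9% of all genes tested. *Sp5*, a transcription factor and direct Wnt target, was the one that fell and had the lowest log2 fold change of the pathway genes tested, from 19.1 ± 5.34 to 2.84 ± 1.57 CPM (SD, n = 5, log2 fold change -2.75, adjusted p = 5.1e-04). *Igfbp4*, *Prom1*, *Ephb3* and *Phlda1* rose with log2 fold changes of 0.88, 0.86, 0.74 and 0.74, and *Cd44* and *Ets2* with 0.50 and 0.21. *Igfbp4* rose from 65.4 ± 4.41 to 120 ± 38.6 CPM, and *Ephb3*, a receptor that keeps cells in position along the crypt, from 13.7 ± 2.82 to 22.8 ± 4.29 CPM. *Slc12a2*, the most abundant of the list, was at 196 ± 21.0 and 220 ± 38.1 CPM and was not called. Targets of the pathway moved in both directions, *Axin2* and *Ephb3* upward, *Sp5* and *Rnf43* downward.

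**Figure D4:**
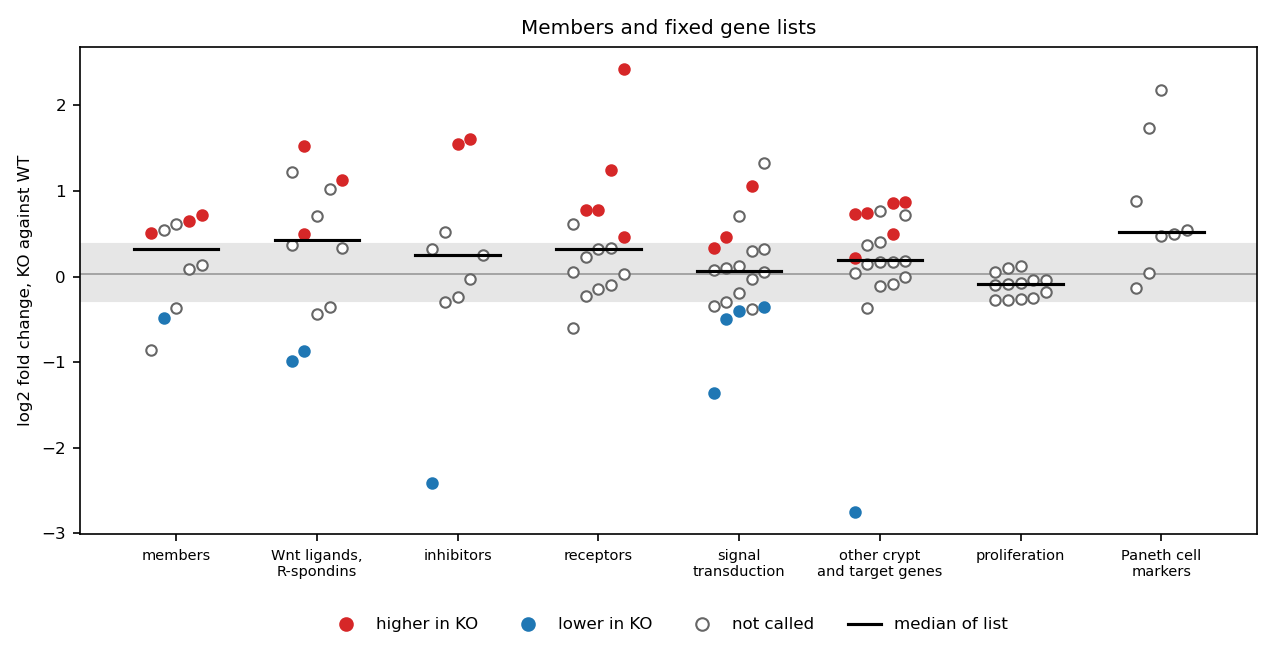
Log2 fold change of KO against WT mice for each tested gene of the 10 crypt genes and of the 5 Wnt pathway lists, the proliferation genes and the Paneth cell markers, with filled red or blue symbols for genes called higher or lower, open symbols for the rest and a bar for the median of each list. The gray line and band are the median and the quartiles of all 15610 genes tested (0.03, -0.28 and 0.38), and the medians of the lists drawn run from -0.08 for proliferation genes to 0.52 for Paneth cell markers.

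Genes of dividing cells gave no call in edgeR, none at an unadjusted p under 0.05 and none in DESeq2. All 13 proliferation genes were tested, with a median log2 fold change of -0.08, and their sums were 607 to 726 CPM in WT and 427 to 819 CPM in KO mice, lowest in KO mouse 4. *Mki67*, a marker of cycling cells, was at 145 ± 13.1 and 121 ± 36.7 CPM (SD, n = 5, log2 fold change -0.26, adjusted p = 0.331). Among 6 genes of reserve or regenerating stem cells 3 rose and 1 fell, beside 16.0% and 13.9% of all genes tested. *Anxa1*, of the regenerating epithelium, rose from 14.4 ± 1.74 to 28.2 ± 5.31 CPM (log2 fold change 0.97, adjusted p = 0.00123), and *Clu* rose (log2 fold change 2.15, adjusted p = 0.0435) over a wide range of 7.59 to 51.8 CPM in WT and 15.4 to 176 CPM in KO mice. *Bmi1* rose with a log2 fold change of 0.33, *Tert*, the telomerase gene, fell with -1.43 (adjusted p = 0.00554), and *Hopx* and *Ly6a* were not called (adjusted p = 0.209 and 0.0552).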

How the data were processed

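RNA-seq counts of 5 WT and 5 KO libraries, 1 per mouse and grouped by their labels, were analysed. The authors deposited raw read counts per Ensembl gene ID without normalization. The submitters' processing notes name GRCm38, FastQC 0.11.9, Trimmomatic, HISAT2 2.0.4, SAMtools 1.3.1 and DESeq2 1.14.1, while the read counter, the strand setting and the annotation release are not given in the sources read here. Without strand, reads of antisense pairs cannot be told apart. The labels pair no mice.

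Symbols and positions came from GENCODE M21 (GRCm38), which named 34490 of 35275 IDs. In R 4.3.3, edgeR 4.0.16 was run with TMM normalization, filterByExpr (minimum count 10, minimum total 15), the quasi-likelihood test and Benjamini-Hochberg adjustment over 15610 genes, at a threshold of 0.05. CPM are TMM scaled, values after ± are SDs and SE is that of the model. The code was tested on simulated data. Alternatives were RLE or library size scaling, scaling to 8 pan-epithelial markers, DESeq2 1.42.0, no filter, robust dispersion, a filter at a mean count of 10, each library left out, a replicate block and marker covariates. KO mice 3 to 5 alone were added after seeing the data. Promoter windows are those of RefSeq (GRCm38.p6).

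The 10 genes and all lists were chosen with earlier results of these data known, and no test was adjusted over a list alone. Genes could be named if they were of the 10, *Slc39a14*, the 3 most abundant of each list or, for the 5 Wnt lists, up to 4 called genes with the largest change, and not all of these are named. *Grem1*, *Dll1*, *Jag1*, *Neurog3*, *Atoh1*, *Tert*, *Bmi1*, *Anxa1*, *Lct*, *Krt19*, *Ephb3* and *Cd44* were chosen after their values were seen.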

Additional observations from a re-analysis of the deposited data

Results flagged for a closer look

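In groups of 5 mice, the highest or lowest library was looked at again where its gap to the nearest library took more than 0.71 of the range of the group (Dixon's critical value). For independent normal values chance alone gives about 1 in 20 groups. CPM of related genes need not follow this rate, least of all near the floor. Of 196 groups, from 98 genes, 16 met this, and of the 20 groups of the crypt genes none did.

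KO mouse 1 stood apart for *Slc39a14* (160.1 CPM, other KO mice 78.5 to 93.8), *Gata4* (59.37 CPM, others 0.572 to 13.9), *Fabp2*, a fatty acid binding protein of enterocytes (7535 CPM, others 2216 to 3441), the Paneth cell lysozyme gene *Lyz1* (11140 CPM, others 2604 to 4135) and *Sfrp1* (63.88 CPM, others 26.4 to 36.9). KO mouse 1 is also the library whose removal made *Olfm4* pass the test. KO mouse 4 stood apart for the smooth muscle genes *Acta2* (1672 CPM, others 490 to 672) and *Mylk* (1733 CPM, others 676 to 935), for *Fzd8* (11.77 CPM, others 7.38 to 8.26) and, downward, for *Ctnnb1* (572.3 CPM, others 823 to 895). KO mouse 2 stood apart for the colon genes *Car1* (1172 CPM, others 0 to 11.3) and *Aqp8* (70.76 CPM, others 0 to 0.0477).

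Single libraries also stood apart for *Fzd6* in KO mouse 3 (10.9 CPM, others 5.72 to 6.504), *Ly6a* in KO mouse 5 (123 CPM, others 21.5 to 46.4), *Clu* in WT mouse 5 (51.83 CPM, others 7.59 to 14.4), the stomach gene *Gkn2* in WT mouse 5 (1.345 CPM, others 0) and the Notch ligand gene *Dll1* in WT mouse 3 (40.66 CPM, others 32.6 to 34.8).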

How the results depend on the processing

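RLE and library size scaling, DESeq2, both other filters and a robust dispersion left *Ascl2*, *Axin2*, *Tnfrsf19* and *Rnf43* called in the same direction. Scaled to the pan-epithelial markers, 709 genes were higher and 7019 lower, 4 and 27 of the Wnt pathway genes, and 0 and 3 of the crypt genes, with *Lgr5* at -0.30 and *Smoc2* at -0.33. With the smooth muscle covariate 10 genes were higher and 8 lower, with the pan-epithelial covariate 4 and 2, and under either 0 of the crypt genes and 0 of the Wnt pathway genes were called. *Olfm4* then turned to 0.34 and *Smoc2* to -0.49 under the first, and *Axin2* to -0.034, *Lgr5* to -0.20 and *Wnt3* to -0.67 under the second. The other log2 fold changes kept their sign with wider SEs, some larger (*Axin2* 0.82 under the first, *Olfm4* -1.26 under the second) and some smaller (*Tnfrsf19* 0.12, *Rnf43* -0.22 and *Znrf3* -0.11 under the first, *Sox9* 0.16 and *Znrf3* -0.21 under the second). The cause was not tested. With KO mice 3 to 5 alone, chosen after seeing the data, 1 crypt gene was higher (*Ascl2*) and 2 were lower (*Rnf43* and *Olfm4*), and *Lgr5* was at -0.073. Leaving out 1 library gave 1634 to 2944 genes higher and 1573 to 2563 lower, 12 to 20 Wnt pathway genes higher and 6 to 10 lower, and 0 to 4 crypt genes higher and 1 to 2 lower. *Lgr5* then ranged from -0.00055 (without KO mouse 2) to 0.24 and *Smoc2* from -0.046 (without KO mouse 4) to 0.19. The replicate numbers did not pair the mice: residuals of same-numbered libraries correlated at -0.17 to 0.18, and 1 of 5 WT libraries correlated best with its own number. With the replicate number as a block, 3848 genes were called, and of the crypt genes 3 were higher and 2 lower, *Olfm4* being the one added (-1.10, adjusted p = 0.0452). Counts per library were as low as 40 for *Wnt3*, 65 for *Tnfrsf19* and 78 for *Ascl2*, which limits the precision of these values.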

Other observations

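Other signals that crypt stem cells receive come from the BMP and Notch pathways. Of 16 genes of the BMP pathway, which restrains stem cells, all were tested, 5 rose and 0 fell in edgeR (7 and 1 at an unadjusted p under 0.05, 7 and 0 in DESeq2), beside 16.0% and 13.9% of all genes, so that 31.2% were called against 29.9% of all genes. The BMP antagonist gene *Grem1*, made by cells of the muscle layer below the crypt, rose from 32.7 ± 13.5 to 126 ± 46.0 CPM (SD, n = 5, log2 fold change 1.95, adjusted p = 0.00204). The BMP target genes *Id1* and *Id3* rose as well, with log2 fold changes of 0.55 and 0.67. Smooth muscle markers rose in the same libraries, and their part in this was not tested.

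Of 11 tested Notch and secretory lineage genes, 2 rose and 3 fell (2 and 4 at an unadjusted p under 0.05 and in DESeq2), beside 16.0% and 13.9% of all genes. *Atoh1* and *Spdef*, which drive secretory cell fate, rose with log2 fold changes of 0.95 (adjusted p = 0.0109) and 1.12 (adjusted p = 0.00175), whereas the Notch ligand genes *Dll1* and *Jag1* fell with -0.96 (adjusted p = 0.00108) and -0.64 (adjusted p = 0.00256). *Neurog3*, which starts the enteroendocrine lineage, fell from 2.06 ± 0.165 to 0.637 ± 0.0669 CPM (log2 fold change -1.68, adjusted p = 2.8e-04). *Hes1*, a Notch target, was at 31.5 ± 3.62 and 29.4 ± 4.01 CPM and was not called (adjusted p = 0.564).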
